A study of Homo sapiens with 12 samples.

Results

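The 36 genes described here encode the machinery that copies DNA (19 replication members) and the machinery that divides the cell (17 mitosis members). They were picked by gene symbol from a table of raw read counts for 51141 gene symbols, and all 36 were found and had enough counts to be among the 14447 genes tested. RNA was measured by poly(A) sequencing in EA.hy926 cells, a hybrid of human umbilical vein endothelium and A549 lung carcinoma cells, in 12 libraries that fall into 4 groups of 3. TEPA+hypoxia cells were given 50 µM TEPA, a chelator of copper, for 16 h and then spent 8 h in 1% oxygen. Hypoxia cells spent 8 h in 1% oxygen with no chelator. TEPA cells had the chelator and then 8 h more at normal oxygen, and control cells had neither treatment. All groups were the same line in DMEM with 10% fetal bovine serum, so the model is 1 dividing hybrid line and not primary endothelium. The study asks how copper bears on transcription by HIF-1, the factor that carries much of the response to low oxygen. The labels do not say whether the 3 libraries of a group came from separate cultures, so the p-values cover only how far these libraries vary, which may be technical.

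Replication starts with licensing, when CDC6 and CDT1 help load the ring of MCM2 to MCM7 onto DNA. CDC45 and the GINS complex then turn that ring into the working helicase, PCNA clamps the polymerases to the template, and ribonucleotide reductase (RRM1, RRM2) and thymidylate synthase (TYMS) supply the building blocks. Cyclin E (CCNE1, CCNE2) drives entry into S phase and E2F factors such as E2F1 switch on most of these genes. The mitosis genes rise later in the cycle, many of them through a promoter element called CHR that is read by the MuvB complexes. They include CDK1 and its cyclins, the kinases PLK1, AURKA and AURKB, the spindle checkpoint (BUB1, BUB1B), spindle and motor proteins (TPX2, KIF11, KIF20A), and the general marker of dividing cells MKI67. In RNA from whole cultures, fewer cells in S phase or mitosis and less of the RNA in each such cell cannot be told apart.

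The promoters of 7 members (MCM2, PCNA, RRM2 and E2F1 for replication, CCNB1, CDK1 and PLK1 for mitosis) are printed to show E2F, CCAAT and CHR matches in place. Windows reach from 250 bases before to 50 bases after a RefSeq start (GRCh38.p14), and 30 of the 36 members had at least 1. The motifs read on both strands were E2F (TTTCCCGC, TTTCGCGC, TTTGCCGC or TTTGGCGC), the CCAAT box (CCAAT) and CHR (TTTGAA or TTCGAA), and capitals below mark their matches. Where a gene had several windows the one with the most matches is shown.
MCM2, a helicase subunit, chr3:127598161-127598460, plus strand: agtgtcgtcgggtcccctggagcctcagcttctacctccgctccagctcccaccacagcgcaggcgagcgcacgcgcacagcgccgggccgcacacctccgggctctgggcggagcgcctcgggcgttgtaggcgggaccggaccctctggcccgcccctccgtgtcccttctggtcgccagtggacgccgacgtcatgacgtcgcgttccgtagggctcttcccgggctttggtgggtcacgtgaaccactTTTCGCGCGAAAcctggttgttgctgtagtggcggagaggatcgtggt
PCNA, the sliding clamp, chr20:5126573-5126872, minus strand: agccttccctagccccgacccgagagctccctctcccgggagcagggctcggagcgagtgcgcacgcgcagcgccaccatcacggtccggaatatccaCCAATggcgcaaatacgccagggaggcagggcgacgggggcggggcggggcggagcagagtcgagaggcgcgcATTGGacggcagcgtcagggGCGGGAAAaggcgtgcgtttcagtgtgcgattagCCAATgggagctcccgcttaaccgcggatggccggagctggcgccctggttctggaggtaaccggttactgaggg
RRM2, the small subunit of ribonucleotide reductase, chr2:10122489-10122788, plus strand: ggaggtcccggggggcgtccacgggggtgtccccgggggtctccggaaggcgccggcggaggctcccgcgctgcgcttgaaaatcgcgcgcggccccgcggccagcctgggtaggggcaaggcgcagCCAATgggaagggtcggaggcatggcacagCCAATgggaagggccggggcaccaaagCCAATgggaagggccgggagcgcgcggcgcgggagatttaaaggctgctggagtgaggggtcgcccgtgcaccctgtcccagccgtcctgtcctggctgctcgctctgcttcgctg
E2F1, the transcription factor, chr20:33686336-33686635, minus strand: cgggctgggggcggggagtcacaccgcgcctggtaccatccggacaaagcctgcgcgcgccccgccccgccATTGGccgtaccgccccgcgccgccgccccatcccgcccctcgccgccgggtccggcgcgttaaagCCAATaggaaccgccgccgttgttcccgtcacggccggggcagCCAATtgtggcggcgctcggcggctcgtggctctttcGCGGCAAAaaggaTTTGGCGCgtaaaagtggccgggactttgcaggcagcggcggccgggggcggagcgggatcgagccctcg
CCNB1, cyclin B1, chr5:69166900-69167199, plus strand: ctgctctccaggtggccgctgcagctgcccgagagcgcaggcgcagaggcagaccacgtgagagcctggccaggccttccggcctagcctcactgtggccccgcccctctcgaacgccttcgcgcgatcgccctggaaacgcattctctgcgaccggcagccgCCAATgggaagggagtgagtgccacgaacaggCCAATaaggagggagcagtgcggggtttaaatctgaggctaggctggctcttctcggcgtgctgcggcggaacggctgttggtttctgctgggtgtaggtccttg
CDK1, the mitotic kinase, chr10:60778228-60778527, plus strand: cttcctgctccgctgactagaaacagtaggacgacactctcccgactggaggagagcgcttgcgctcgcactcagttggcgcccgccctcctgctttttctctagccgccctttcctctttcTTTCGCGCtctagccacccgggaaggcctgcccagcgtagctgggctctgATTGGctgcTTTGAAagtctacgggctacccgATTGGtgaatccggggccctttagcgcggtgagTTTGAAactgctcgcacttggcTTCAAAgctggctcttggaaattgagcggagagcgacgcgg
PLK1, a mitotic kinase, chr16:23678639-23678938, plus strand: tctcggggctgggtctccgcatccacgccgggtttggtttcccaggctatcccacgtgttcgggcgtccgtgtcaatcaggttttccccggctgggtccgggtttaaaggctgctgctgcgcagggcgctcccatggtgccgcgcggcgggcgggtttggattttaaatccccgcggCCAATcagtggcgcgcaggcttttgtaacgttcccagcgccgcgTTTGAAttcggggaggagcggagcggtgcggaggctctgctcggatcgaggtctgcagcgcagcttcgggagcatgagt
The capitals of MCM2 hold 1 E2F match on each strand, and these overlap. The windows do not split cleanly by class: RRM2 and CCNB1 hold only CCAAT, and CDK1 is the 1 mitosis member with an E2F match. An E2F match was present in 11 of 16 replication members with a window (68.8%) and in 1 of 14 mitosis members (7.14%), against 6.78% of the tested genes with a window. A CHR match was present in 2 replication members (12.5%) and in 10 mitosis members (71.4%), against 15.2% of tested genes. CCAAT was present in 75.0% of the replication and 92.9% of the mitosis members, against 42.9%. A match is a description of letters and not a sign that a factor binds.

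Of the 12 libraries, hypoxia 2 and 3 were unlike the rest. Total counts ran from 13406858 in hypoxia 3 to 24778944 in TEPA 1. The TMM scaling factor was 0.772 and 0.838 in hypoxia 2 and 3 and 1.03 to 1.08 elsewhere. Counts of calls that use the hypoxia group are therefore given with and without these 2 libraries. For members called in hypoxia against control, KIF11 and CENPF apart, the fold without them is also given. Without them the hypoxia group is hypoxia 1 alone. The SE and p are then based on the spread within the other groups, on the assumption that hypoxia libraries vary as those do. Of 12 endothelial markers 11 were above the floor of 3 counts in every library, PECAM1 at 431 to 675 CPM among them, while CLDN5 had 0 counts. Some were low, VWF at 6.41 to 10.4 CPM and KDR at 2.87 to 12.1 CPM, and TEK ran from 2.28 to 82 CPM. The epithelial keratin genes KRT7, KRT8 and KRT18 were high while CDH1 had 0 counts, and EPCAM had 2 to 17 counts. Of 9 fibroblast and mural markers 4 to 6 were above the floor in each library, with RGS5 at 34.5 to 96.2 CPM, while COL3A1 and DCN had 0 counts. Of 8 leukocyte markers 1 to 3 were above the floor, with LYZ at 3.67 to 6.12 CPM, while PTPRC and TYROBP had 0 counts. Summed over 8 epithelial markers, the level was 18190 and 15540 CPM in hypoxia 2 and 3 and 5444 to 7692 CPM in the other libraries, and over the fibroblast and mural markers it was 51.5 and 58.2 CPM in hypoxia 2 and 3 and 84.2 to 108.9 CPM elsewhere. The part of these shifts in the results below was not tested.

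CPM are read counts scaled to a common library size with TMM factors, and levels are compared between genes only per kb of transcript. On that scale PCNA was the most abundant member in control cells, at 459 ± 18.3 CPM per kb (SD, n = 3), followed by TYMS at 230.0 ± 2.37. The spindle factor TPX2 and the mitotic exit activator CDC20 came next among all members, at 210.0 ± 8.06 and 176 ± 12.5 CPM per kb, and were the highest of the mitosis members. Neighbours further down the order were often within their spread: PLK1, RRM2 and CCNB1 stood at 104 ± 3.21, 102 ± 3.99 and 101 ± 0.860 CPM per kb. E2F1 was at 48.6 ± 2.37, and the cyclins of S-phase entry were low, CCNE1 at 12.4 ± 0.530 and CCNE2 at 4.74 ± 0.846 CPM per kb. KIF11, the kinesin that pushes spindle poles apart, and CENPF, a kinetochore protein, were lowest of all at 1.22 ± 0.415 and 0.109 ± 0.0329 CPM per kb. They had 1 to 209 and 2 to 82 counts in a library, so both are poorly measured here and a low value is not read as a silent gene.

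**Figure D1:**
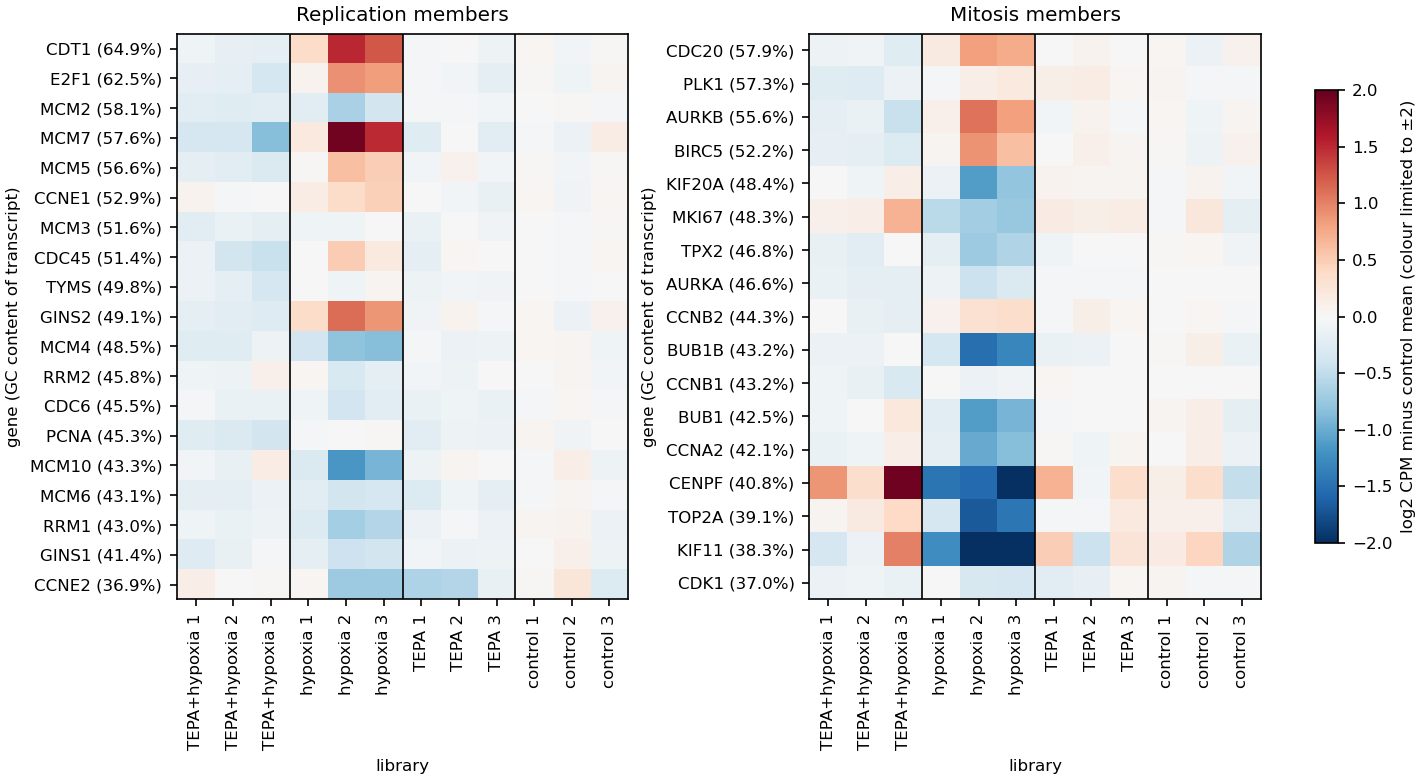
Each column is 1 library and each row 1 member, ordered by GC content of its transcript, with colour for log2 CPM minus the control mean. Hypoxia 2 and 3 show strong colour in both directions, and most replication rows are pale blue in the 3 TEPA+hypoxia libraries.

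Hypoxia against control asks what low oxygen did to these genes where copper was not chelated. With all 12 libraries fitted, 26 of the 36 members were called at an edgeR adjusted p under 0.05, 10 higher and 16 lower, where 57.2% of all genes tested were called (29.4% higher and 27.8% lower). Of the 19 replication members 6 rose and 6 fell, with a median log2 change of -0.057. Of the 17 mitosis members 4 rose and 10 fell, with a median of -0.49, while the median of all genes tested was -0.0054. Without hypoxia 2 and 3, which sets hypoxia 1 alone against control, no member was called by edgeR. The median log2 change was then -0.014 for the replication and -0.12 for the mitosis members, beside -0.0027 for all genes. DESeq2 on all 12 libraries called 27 members, beside 60.2% of all genes. With only the 6 libraries compared, edgeR called 0 of the members and 0% of all genes. Leaving out hypoxia 3 or control 2 took the 26 members called to 15 and 17, with 34.7% and 36.6% of all genes. Leaving out hypoxia 1 instead, 16 replication and 15 mitosis members were at an unadjusted p under 0.05, and all of these were called. In that fit 10925 of 14789 genes were at an unadjusted p under 0.05. The libraries of hypoxia and control did not overlap for 5 replication members that were higher and 7 that were lower, and for 3 and 10 mitosis members, where 27.4% of all genes were higher and 28.2% lower without overlap.

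The subunits of the MCM ring did not move together. MCM7 had 96.1, 320.3 and 236 CPM in hypoxia 1 to 3, against 82.7, 77.0 and 92.7 CPM in control. Hypoxia 2 and 3 were far above every control library and hypoxia 1 was only just above the highest. The log2 change was 1.37 ± 0.33 (SE, edgeR adjusted p = 0.00711) and 0.19 ± 0.18 without those 2 libraries. MCM4 went the other way, with 189, 141 and 136 CPM in hypoxia, against 251, 256 and 229.8 CPM in control, and the groups did not overlap. Its change was -0.66 ± 0.12 (edgeR adjusted p = 0.00601), or -0.38 ± 0.094 without hypoxia 2 and 3. MCM2 had 221, 164 and 199 CPM in hypoxia, against 257, 262 and 254 CPM in control, again without overlap, and a change of -0.40 ± 0.10 (edgeR adjusted p = 0.00851), or -0.22 ± 0.082 without hypoxia 2 and 3. MCM5 rose by 0.40 ± 0.13, but was at 0.022 ± 0.097 in hypoxia 1 alone. MCM6 fell with -0.30 ± 0.087 (-0.21 ± 0.098 in hypoxia 1 alone), while MCM3 did not pass (-0.057 ± 0.079). MCM10, which helps the loaded ring open, fell with -0.75 ± 0.19 (-0.29 ± 0.13 in hypoxia 1 alone).

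Among the other licensing and firing factors, CDT1 and GINS2 rose. CDT1 had 89.7, 199 and 165 CPM in hypoxia, against 71.5, 67.1 and 70.7 CPM in control, and a log2 change of 1.11 ± 0.22 (edgeR adjusted p = 0.00601). GINS2 had 105, 176 and 151 CPM in hypoxia, against 83.5, 75.1 and 86.0 CPM in control, and a change of 0.82 ± 0.15 (edgeR adjusted p = 0.00601). In both genes hypoxia 1 also lay above all control libraries, and its own change was 0.36 ± 0.10 for CDT1 and 0.37 ± 0.11 for GINS2. The other GINS subunit measured, GINS1, fell with -0.32 ± 0.099 (-0.19 ± 0.11 in hypoxia 1 alone). CDC6 (-0.23 ± 0.091) and CDC45 (0.24 ± 0.14) did not pass, and were at -0.091 ± 0.093 and -0.0095 ± 0.14 in hypoxia 1 alone.

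The clamp and the enzymes of nucleotide supply mostly stayed under the threshold. PCNA had 605, 622 and 633 CPM in hypoxia, against 646, 597 and 629.7 CPM in control, and the groups overlapped (-0.0090 ± 0.080, edgeR adjusted p = 0.931). TYMS had 379, 362 and 398 CPM in hypoxia, against 384, 379 and 386 CPM in control, also overlapping (-0.011 ± 0.083). RRM2 had 385, 301 and 324 CPM in hypoxia, against 369, 389 and 361 CPM in control, with hypoxia 1 among the controls and hypoxia 2 and 3 below them (-0.15 ± 0.10). Its partner RRM1 fell with -0.51 ± 0.11 (-0.28 ± 0.097 in hypoxia 1 alone). Of the factors of S-phase entry, E2F1 had 127, 228 and 217 CPM in hypoxia, against 123, 115 and 127 CPM in control. It rose by 0.65 ± 0.18 (edgeR adjusted p = 0.0112), and hypoxia 1 alone was at 0.065 ± 0.11. CCNE1 rose by 0.34 ± 0.11 (0.15 ± 0.12 in hypoxia 1 alone), while CCNE2, with 16.1, 9.40 and 9.36 CPM in hypoxia, against 15.9, 18.6 and 12.9 CPM in control, did not pass (-0.44 ± 0.22).

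Among the mitosis members the proliferation marker MKI67 had 253, 229 and 217 CPM in hypoxia, against 359, 433 and 323 CPM in control. All 3 hypoxia libraries, hypoxia 1 included, lay below all controls, and the log2 change was -0.67 ± 0.16 (edgeR adjusted p = 0.00702), or -0.55 ± 0.19 for hypoxia 1 alone, which did not pass (edgeR adjusted p = 0.138). TOP2A, the topoisomerase that untangles sister chromatids, had 419, 165 and 194 CPM in hypoxia, against 568, 568 and 459 CPM in control (-1.03 ± 0.28, edgeR adjusted p = 0.0109). BUB1B, which restrains CDC20 at the spindle checkpoint, had 85.0, 37.9 and 43.8 CPM in hypoxia, against 109, 117 and 98.6 CPM in control (-0.96 ± 0.24). In TOP2A and BUB1B hypoxia 1 lay between the controls and the other 2 hypoxia libraries, at -0.34 ± 0.14 and -0.35 ± 0.11. CCNA2, BUB1, TPX2, KIF20A and AURKA also fell, with log2 changes between -0.70 ± 0.19 for BUB1 and -0.27 ± 0.090 for AURKA. AURKA, the kinase of spindle poles, had 191, 152 and 167 CPM in hypoxia, against 204, 206 and 204 CPM in control. In hypoxia 1 alone the values were -0.23 ± 0.13 for BUB1, -0.19 ± 0.093 for TPX2, -0.18 ± 0.12 for CCNA2, -0.12 ± 0.093 for KIF20A and -0.10 ± 0.084 for AURKA. KIF11 had 36, 6 and 1 counts in hypoxia, against 139, 135 and 64 in control, and CENPF had 5, 4 and 2, against 26, 25 and 13. Both were called lower. Their folds are not given because hypoxia 2 and 3 lie at or near the floor of 3 counts.

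Other mitosis members rose in the same libraries. CDC20 had 355, 552 and 521 CPM in hypoxia, against 319, 288 and 330.4 CPM in control, a change of 0.61 ± 0.14 (edgeR adjusted p = 0.00691) with 0.18 ± 0.10 in hypoxia 1 alone. AURKB and BIRC5, 2 proteins of the chromosomal passenger complex, rose by 0.73 ± 0.20 and 0.55 ± 0.16, and CCNB2 by 0.25 ± 0.098. In hypoxia 1 alone these genes were at 0.098 ± 0.13, 0.057 ± 0.10 and 0.091 ± 0.11. The 3 central drivers of mitotic entry did not pass. CCNB1 had 217, 200.5 and 209 CPM in hypoxia, against 217, 220.5 and 218 CPM in control. CDK1 had 113, 91.3 and 90.4 CPM in hypoxia, against 119, 113 and 111 CPM in control, and PLK1 had 226, 254 and 264 CPM in hypoxia, against 239.6, 226 and 228 CPM in control. Hypoxia 1 lay inside the control range for CCNB1 and CDK1 and a little under it for PLK1.

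**Figure D2:**
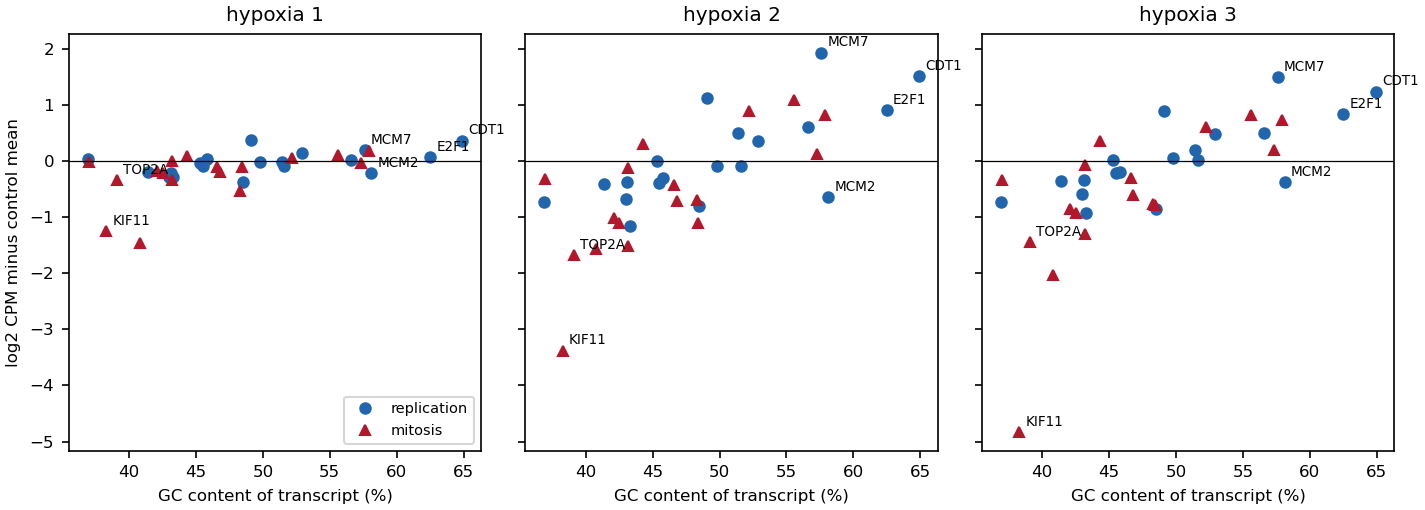
Each point is 1 member, with the GC content of its transcript on the x axis and its log2 CPM minus the control mean on the y axis, 1 panel for each hypoxia library. In all 3 panels members of low GC content lie lower and those of high GC content higher, with the wider range in hypoxia 2 and 3.

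The direction in hypoxia went with the base content and the length of the transcripts. Members called higher had a median GC content of 56.1% (n = 10) and those called lower 43.2% (n = 16). Their median lengths were 2588 and 3673.5 bases, and members not called had 2198. Across the 36 members, which share each library, GC content and the deviation from control had a Spearman rho of 0.549, 0.716 and 0.735 in hypoxia 1 to 3. Across 13008 genes the same values were 0.381, 0.524 and 0.548. For transcript length rho was -0.67, -0.653 and -0.661 across the members, and -0.475, -0.515 and -0.537 across the 13008 genes. For the members the rho with GC content was -0.302, -0.51 and -0.613 in TEPA+hypoxia 1 to 3. With TEPA alone it was 0.151, 0.556 and -0.313 in TEPA 1 to 3. In control 1 to 3 the rho with GC content was -0.142, -0.749 and 0.791 for the members. These deviations are from the mean of the same 3 libraries, so opposite signs are partly built in. A rho also does not give the size of a deviation. The part of base content or length in the hypoxia calls was not tested beyond the correction that follows. With GC content and length taken out per library, 21 members and 43.2% of genes were called, and 15 of the 26 stayed called in the same direction. Among these 15 were MCM7, GINS2, CDT1, MCM5, CCNB2 and BIRC5 (higher) and MCM2, MCM4, TOP2A, BUB1 and BUB1B (lower). CDC20 (-0.16 ± 0.057), AURKB (-0.15 ± 0.059) and E2F1 (-0.050 ± 0.067) changed sign, as did CCNE1, MCM6 and GINS1. Of these CDC20 was called in the opposite direction (edgeR adjusted p = 0.0389), and the others were no longer called. With that correction and without hypoxia 2 and 3, GINS2 at 0.35 ± 0.079 (edgeR adjusted p = 0.0365) and MCM2 at -0.29 ± 0.070 (edgeR adjusted p = 0.0467) were the only members called, beside 2.25% of genes.

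TEPA against control asks what the chelator did at normal oxygen. With all libraries no member was called by edgeR, and 0% of all genes were, with 0 members and 289 genes at an unadjusted p under 0.05. DESeq2 and limma-voom also called 0 members, with 2 and 1 at an unadjusted p under 0.05, and 0.0415% and 0% of all genes. All 19 replication members had a negative log2 change, with a median of -0.076 and values from -0.45 ± 0.22 for CCNE2 to -0.0025 ± 0.13 for MCM5. Of the 17 mitosis members 6 were negative, with a median of 0.017, and the median of all genes was 0.0043. Over all 26 fits run, 15 to 19 replication members were negative and their median lay between -0.084 and -0.067.

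PCNA had 534, 583 and 578 CPM with TEPA, against 646, 597 and 629.7 CPM in control, and the groups did not overlap (-0.14 ± 0.080, edgeR adjusted p = 1). MCM6 had 146, 167 and 155 CPM with TEPA, against 174, 184 and 172 CPM in control, likewise without overlap (-0.18 ± 0.086). CCNE2 had 10.2, 10.4 and 14.1 CPM with TEPA, against 15.9, 18.6 and 12.9 CPM in control, and TEPA 3 lay inside the control range. Members lower without overlap were MCM6, PCNA, CDC6, TYMS and AURKA, and none was higher, where 6.92% of all genes were lower and 6.64% higher without overlap. RRM2 had 359.9, 349 and 371 CPM and E2F1 119.8, 117 and 107 CPM with TEPA, both overlapping control. Of the mitosis members PLK1 had 251, 256 and 238 CPM with TEPA, against 239.6, 226 and 228 CPM in control (0.10 ± 0.088), and CDK1 had 98.6, 101 and 117 CPM, against 119, 113 and 111 CPM (-0.11 ± 0.11). In both genes the groups overlapped. MKI67 at 412, 399 and 408 CPM, TOP2A at 518, 516 and 606 CPM, CCNB1 at 226, 218 and 219.7 CPM and AURKA at 202, 200.3 and 202 CPM with TEPA all had a log2 change under 0.2 in size.

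The effect of low oxygen on cells already under the chelator is given by TEPA+hypoxia against TEPA. The 2 libraries that stood apart enter this comparison only through the scaling, the gene filter and the shared spread. No member was called by edgeR (smallest adjusted p = 0.319), and 0.0969% of all genes were called. At an unadjusted p under 0.05 were 1 replication and 3 mitosis members, beside 1110 of 14447 genes. Of the replication members 14 of 19 were negative, with a median of -0.11, and of the mitosis members 10 of 17, with a median of -0.042, beside 0.0037 for all genes. The kinase PLK1 came nearest. It had 196, 193 and 213 CPM with TEPA and hypoxia, against 251, 256 and 238 CPM with TEPA alone, and the groups did not overlap. The log2 change was -0.31 ± 0.088 in the fit of all libraries. PLK1 was called without hypoxia 2 and 3 (-0.30 ± 0.063, edgeR adjusted p = 0.0301), by DESeq2 (-0.32, adjusted p = 0.0313) and with only the 6 libraries compared (-0.30, edgeR adjusted p = 0.036). All genes called were 2.17%, 0.969% and 2.54% in these fits. With the GC and length correction it was not, at -0.20 ± 0.11 (edgeR adjusted p = 0.527) or -0.19 ± 0.071 without hypoxia 2 and 3 (edgeR adjusted p = 0.126), where BIRC5 was the 1 member called (-0.18 ± 0.049, edgeR adjusted p = 0.0435). These corrected fits called 0.308% and 5.43% of genes.

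CCNB1 had 205, 197 and 177 CPM with TEPA and hypoxia, against 226, 218 and 219.7 CPM with TEPA alone (-0.20 ± 0.083, edgeR adjusted p = 0.593). AURKA had 188, 181 and 181 CPM with TEPA and hypoxia, against 202, 200.3 and 202 CPM with TEPA alone (-0.14 ± 0.090). Both genes lay lower without overlap, as did CDC20, AURKB and BIRC5, so that 6 mitosis members with PLK1 were lower and none higher, where 18% of all genes were lower and 12.5% higher without overlap. Of the replication members 6 were lower without overlap (MCM2, MCM5, MCM7, PCNA, GINS2 and TYMS) and CCNE2 alone was higher. CCNE2 had 17.1, 15.7 and 15.9 CPM with TEPA and hypoxia, against 10.2, 10.4 and 14.1 CPM with TEPA alone (0.49 ± 0.22, edgeR adjusted p = 0.648). MKI67 had 395, 402 and 596 CPM with TEPA and hypoxia, against 412, 399 and 408 CPM with TEPA alone, and TOP2A had 552, 598 and 698 CPM, against 518, 516 and 606 CPM. In MKI67 the mean rests on TEPA+hypoxia 3, and both genes overlapped and did not pass.

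**Figure D3:**
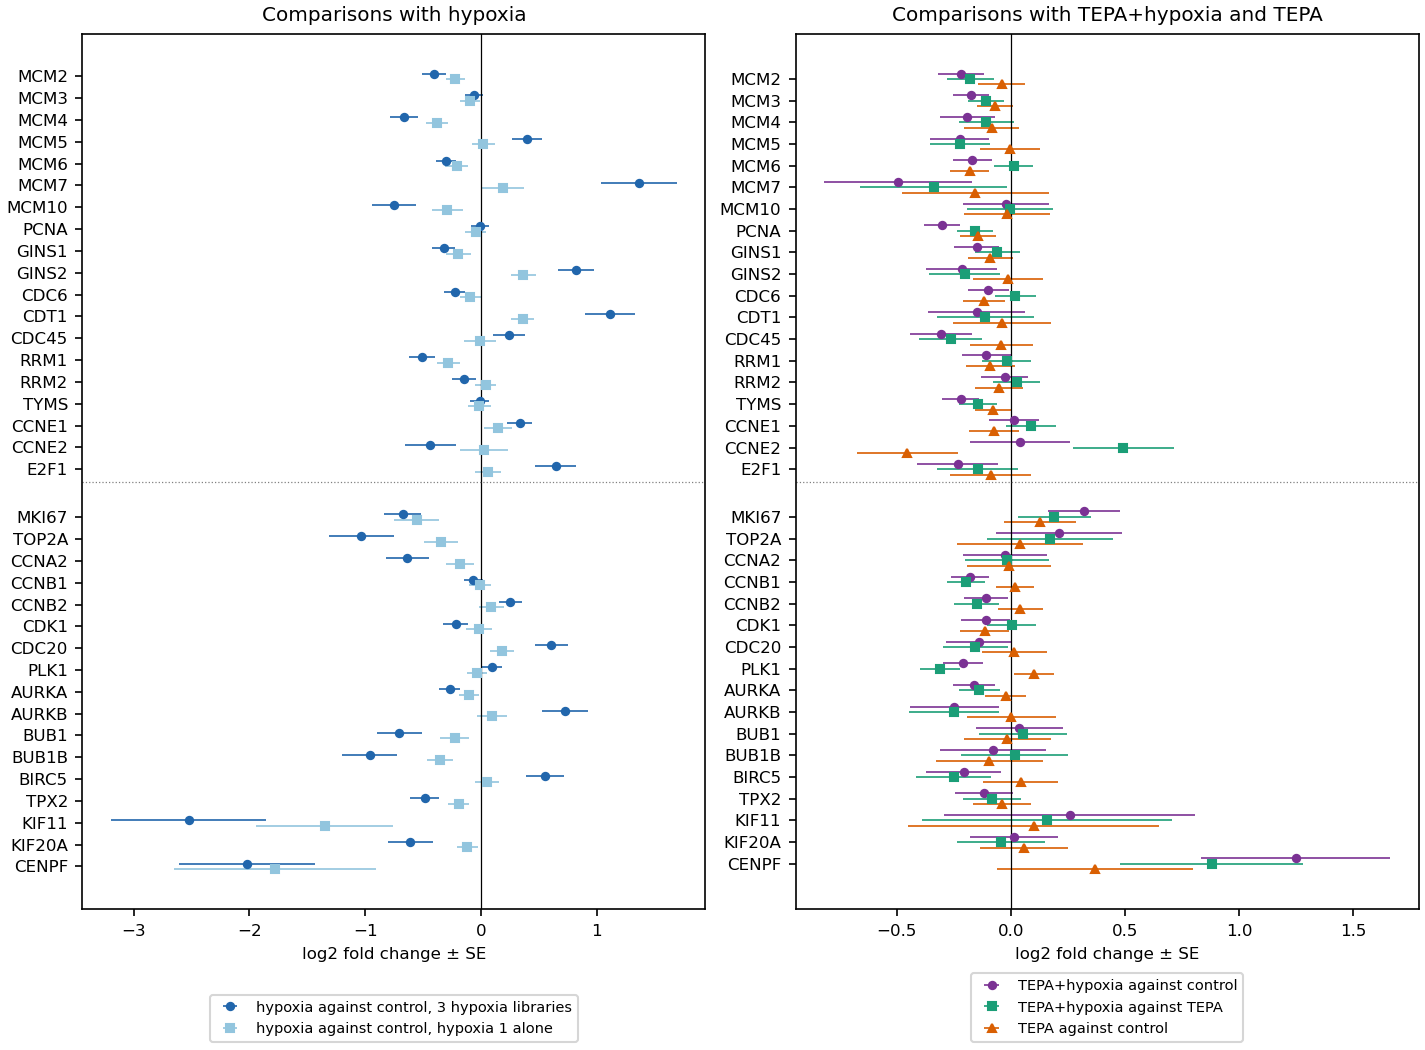
Points are log2 fold changes with bars of 1 SE for each member, replication above the dotted line and mitosis below it. The left panel sets hypoxia against control with 3 hypoxia libraries and with hypoxia 1 alone, and in the right panel 17 of 19 replication members lie left of 0 for TEPA+hypoxia against control.

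TEPA+hypoxia against control sets both treatments against none. Replication transcripts lay lower by a small amount almost throughout: 17 of 19 were negative, with a median log2 change of -0.18, while 11 of 17 mitosis members were negative, with a median of -0.11, and all genes had a median of 0.00064. Of the replication members 13 were lower without overlap between the libraries and none was higher, where 15.5% of all genes were lower and 13% higher without overlap. These 13 were 6 helicase subunits (MCM2 to MCM7), PCNA, GINS2, CDC6, CDT1, CDC45, TYMS and E2F1. In the fit of all 12 libraries none of the 36 members was called by edgeR (smallest adjusted p = 0.191), and 0.263% of all genes were called. At an unadjusted p under 0.05 were 4 replication and 2 mitosis members, beside 1471 of 14447 genes. Over the 26 fits run, 15 to 18 replication members were negative and their median lay between -0.19 and -0.13.

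PCNA had 525, 508 and 486 CPM with TEPA and hypoxia, against 646, 597 and 629.7 CPM in control. The change was -0.30 ± 0.080 (SE, edgeR adjusted p = 0.191). It was called by DESeq2 (-0.31, adjusted p = 0.00171), beside 2.1% of all genes, and by edgeR without hypoxia 2 and 3 (-0.29 ± 0.066, adjusted p = 0.0249), beside 5.02% of all genes. MCM2 had 223, 219 and 223 CPM with TEPA and hypoxia, against 257, 262 and 254 CPM in control (-0.22 ± 0.10), and passed only narrowly without hypoxia 2 and 3 (-0.21 ± 0.057, edgeR adjusted p = 0.0499). TYMS had 351, 333 and 302 CPM with TEPA and hypoxia, against 384, 379 and 386 CPM in control (-0.22 ± 0.083, edgeR adjusted p = 0.373). CDC45 had 62.3, 52.5 and 49.8 CPM with TEPA and hypoxia, against 67.7, 66.3 and 69.4 CPM in control (-0.30 ± 0.14), and E2F1 had 108, 108 and 95.2 CPM, against 123, 115 and 127 CPM (-0.23 ± 0.18). Each of these genes had all 3 TEPA+hypoxia libraries below all 3 controls. With the GC and length correction and without hypoxia 2 and 3, 6 replication members fell (MCM2, MCM4, MCM5, MCM7, PCNA and CDC45) and CENPF rose, beside 13% of all genes. Of the 6 that fell, MCM7 had the largest change, -0.44 ± 0.093 (edgeR adjusted p = 0.00797).

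Not every S-phase gene lay lower. RRM2 had 352, 349 and 399 CPM with TEPA and hypoxia, against 369, 389 and 361 CPM in control, with the groups overlapping, and MCM10 had -0.020 ± 0.19. CCNE2 was at 0.041 ± 0.22 and CCNE1 at 0.015 ± 0.11. Of the mitosis members PLK1 (-0.21 ± 0.088), CCNB1 (-0.18 ± 0.083), AURKA, AURKB, BIRC5 and CDK1 lay below control without overlap. CDK1 had 105, 108 and 104 CPM with TEPA and hypoxia, against 119, 113 and 111 CPM in control. CENPF lay above control in CPM without overlap, on 36, 25 and 82 raw counts, against 26, 25 and 13 in control, and was called only with the correction and without hypoxia 2 and 3. The summed level of the 19 replication members was 3143 to 3209 CPM with TEPA and hypoxia, 3455 to 3788 CPM in hypoxia, 3327 to 3490 CPM with TEPA and 3582 to 3639 CPM in control. For the 17 mitosis members it was 3499 to 3939 CPM with TEPA and hypoxia, 3005 to 3329 CPM in hypoxia, 3679 to 3819 CPM with TEPA and 3516 to 3811 CPM in control. The replication sum was thus lowest in the 3 TEPA+hypoxia libraries and the mitosis sum lowest in the 3 hypoxia libraries. A sum weighs abundant members most, and in hypoxia TOP2A and TPX2 lay lower than in control while CDC20 lay higher. The mitosis sum was 3329 CPM in hypoxia 1, against 3005 and 3019 CPM in hypoxia 2 and 3.

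**Figure D4:**
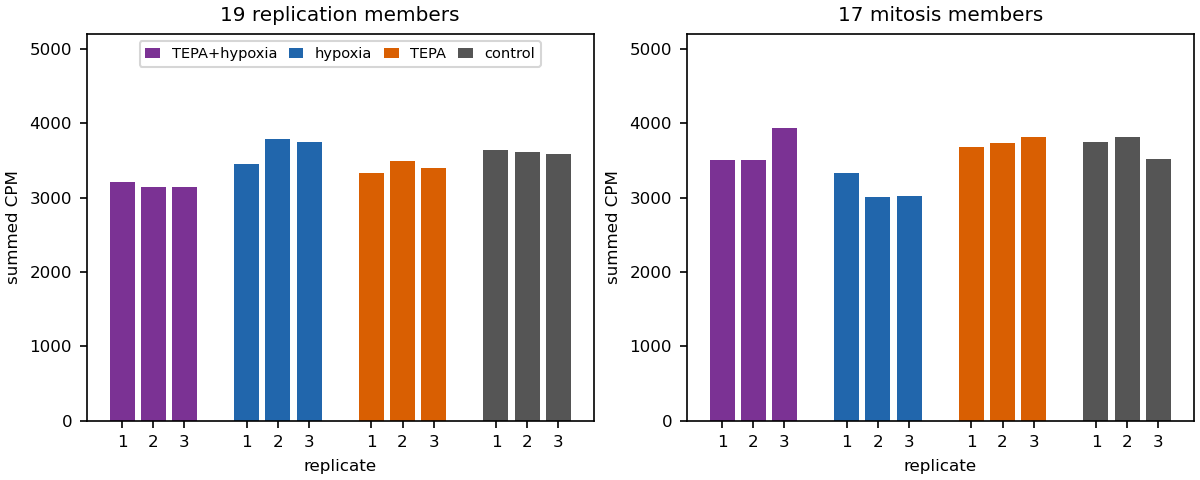
Bars give the summed CPM of the 19 replication members and of the 17 mitosis members in each library, on axes that start at 0. The 3 TEPA+hypoxia bars are the lowest for replication, at 3143 to 3209 CPM, and the 3 hypoxia bars the lowest for mitosis, at 3005 to 3329 CPM.

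TEPA+hypoxia against hypoxia asks what the chelator did at low oxygen and rests on the group that holds hypoxia 2 and 3. With all libraries 26 members were called by edgeR, 12 higher and 14 lower, where 61.5% of all genes were called (30.9% higher and 30.6% lower). Of the replication members 3 rose and 9 fell, and of the mitosis members 9 rose and 5 fell. The libraries did not overlap for 4 replication members that were higher and 10 that were lower, and for 8 and 5 mitosis members, where 32.2% of all genes were higher and 30.5% lower without overlap. Scaled by library totals alone 26 passed, but 18 were higher and 8 lower, with 59.8% of all genes called. Under that scaling the median of all genes was 0.31, against 0.032 with TMM. For hypoxia against control the median was then -0.24, with 6 members higher and 19 lower and 53.5% of all genes called. Without hypoxia 2 and 3, with hypoxia 1 as the 1 hypoxia library and the spread taken from the other groups, 6 members stayed called, beside 15.2% of all genes. They were MCM7 (-0.68 ± 0.18, edgeR adjusted p = 0.0292), GINS2 (-0.58 ± 0.11, edgeR adjusted p = 0.0178) and CDT1 (-0.50 ± 0.10, edgeR adjusted p = 0.0183), all lower, and MKI67, TOP2A and CENPF, all higher. With only the 6 libraries compared 13 passed, beside 37.3% of all genes, and DESeq2 with all libraries called 26, beside 63.7% of all genes.

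MCM7 had 66.5, 66.4 and 46.4 CPM with TEPA and hypoxia, against 96.1, 320.3 and 236 CPM in hypoxia, and all 3 values lay below hypoxia 1 (-1.86 ± 0.33, edgeR adjusted p = 0.00217). GINS2 had 71.8, 70.4 and 68.4 CPM with TEPA and hypoxia, against 105, 176 and 151 CPM in hypoxia (-1.04 ± 0.16). CDT1 had 65.8, 62.1 and 60.8 CPM with TEPA and hypoxia, against 89.7, 199 and 165 CPM in hypoxia (-1.26 ± 0.22). MCM7, a subunit of the helicase ring, GINS2, which helps activate it, and CDT1, which helps load it, also fell in the corrected fit without hypoxia 2 and 3 (-0.52 ± 0.13, -0.51 ± 0.079 and -0.27 ± 0.080, with edgeR adjusted p = 0.0227, 0.00482 and 0.0468), beside 9.34% of genes. MKI67 had 395, 402 and 596 CPM with TEPA and hypoxia, against 253, 229 and 217 CPM in hypoxia, with no overlap (0.99 ± 0.16, edgeR adjusted p = 0.00217), and 0.88 ± 0.20 without hypoxia 2 and 3 (edgeR adjusted p = 0.0203). TOP2A had 552, 598 and 698 CPM with TEPA and hypoxia, against 419, 165 and 194 CPM in hypoxia (1.25 ± 0.28), and 0.56 ± 0.15 without hypoxia 2 and 3 (edgeR adjusted p = 0.0271). CDC20 had 291, 296 and 264 CPM with TEPA and hypoxia, against 355, 552 and 521 CPM in hypoxia (-0.75 ± 0.14), but missed the threshold without hypoxia 2 and 3 (-0.31 ± 0.10, edgeR adjusted p = 0.0528) and changed sign with the GC and length correction (0.12 ± 0.057).

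**Figure D5:**
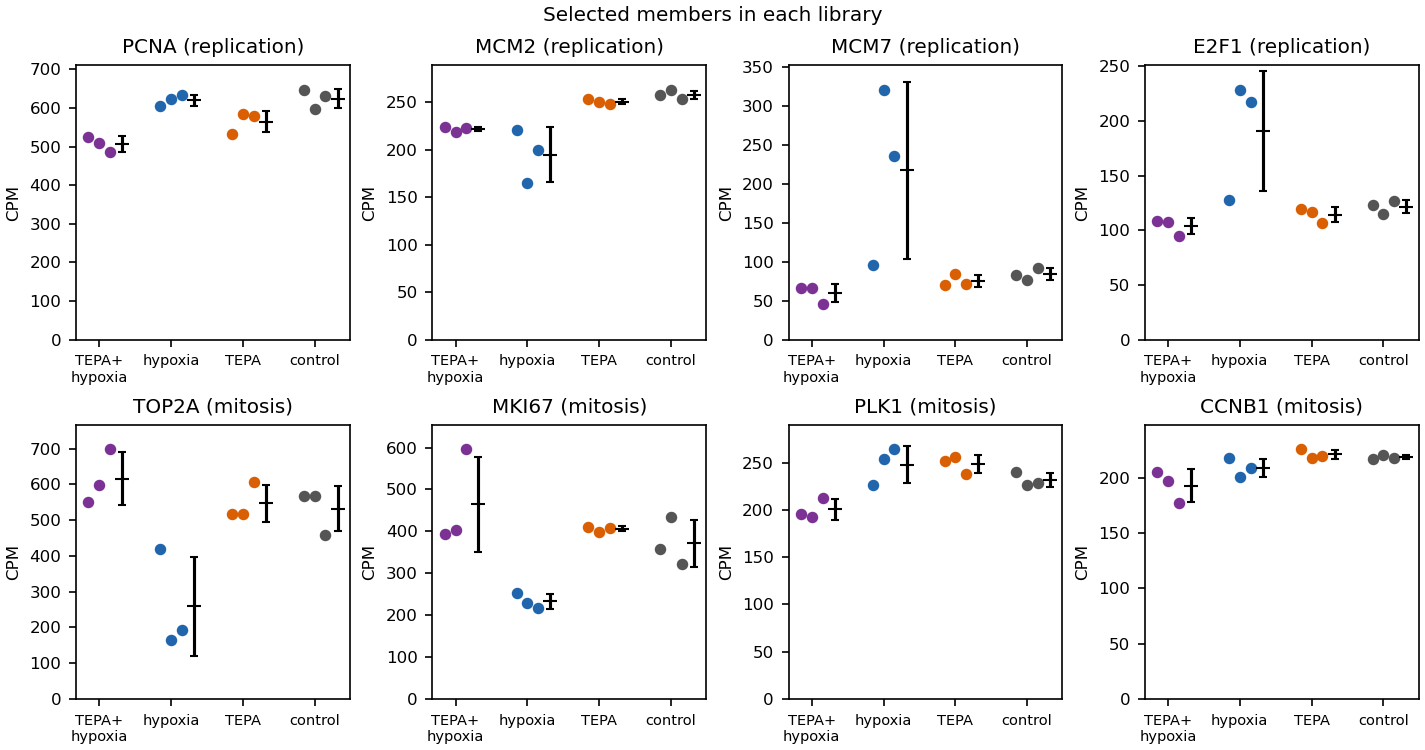
Each panel shows 1 member, with CPM on the y axis from 0, 1 point for each library, and the mean with bars of 1 SD beside each group. PCNA and MCM2 lie lower in all 3 TEPA+hypoxia libraries than in control, while MCM7, E2F1 and TOP2A in the hypoxia group are spread by hypoxia 2 and 3.

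Whether low oxygen acted differently with TEPA than without was tested by the interaction. In the fit of all libraries 20 members were called by edgeR, 10 with a higher and 10 with a lower response under TEPA, where 38.8% of all genes were called (17.3% higher and 21.5% lower). Examples are MCM7 (-1.71 ± 0.46), GINS2 (-1.02 ± 0.22) and CDT1 (-1.23 ± 0.30), whose response was lower, and MKI67 (0.86 ± 0.23), whose response was higher. With hypoxia 2 and 3 left out these were -0.51 ± 0.23, -0.56 ± 0.13, -0.46 ± 0.13 and 0.76 ± 0.23. None was called without hypoxia 2 and 3, nor was any other gene. Leaving out control 1, control 2, hypoxia 3, TEPA 2 or TEPA+hypoxia 3 alone also brought the count to 0. In these fits no gene of all those tested was called, with a smallest edgeR adjusted p of 0.0559 to 0.0663. Yet 6176 to 6599 genes were at an unadjusted p under 0.05. The count of members was 32 without hypoxia 1, beside 66% of all genes. It was 6 to 9 without hypoxia 2, TEPA 1, TEPA 3 or TEPA+hypoxia 2, where the smallest edgeR adjusted p of any gene was 0.0432 to 0.0477. With the GC and length correction 5 were called, beside 15.9% of genes.

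Further genes of the same pathways were read from 4 lists, described by counts. In hypoxia against control, where 57.2% of all genes were called (29.4% higher and 27.8% lower), the lists read as follows. Of 55 other replication genes 12 rose and 27 fell, with a median of -0.30, and none was called without hypoxia 2 and 3. POLD4 (1.62 ± 0.30), POLE4 (1.36 ± 0.28) and RFC2 (0.80 ± 0.16), small subunits of polymerases and of the clamp loader, had the smallest p, and were at 0.56, 0.43 and 0.27 in hypoxia 1 alone. Of 52 other mitosis genes tested 7 rose and 32 fell, with a median of -0.55, among them INCENP (-1.05 ± 0.21, and -0.53 ± 0.13 in hypoxia 1 alone), the scaffold of the passenger complex. With hypoxia 2 and 3 left out, where 0.513% of all genes were called, the kinesin KIF23 was the 1 gene called (-0.79 ± 0.16, edgeR adjusted p = 0.0496). Of 27 cell cycle regulators 9 rose and 11 fell, among them CCND3 (cyclin D3, 0.46 ± 0.096, and 0.40 ± 0.11 in hypoxia 1 alone). Of 13 targets of p53 and arrest genes 5 rose and 3 fell, a share near that of all genes. Without hypoxia 2 and 3, BTG2, an antiproliferative gene, was called from the 1 hypoxia library, with the spread taken from the other groups (0.64 ± 0.12, edgeR adjusted p = 0.0327).

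With TEPA alone, against control, none of the genes on the 4 lists was called. For low oxygen under TEPA none was called with all libraries, and without hypoxia 2 and 3 there were 0, 2, 3 and 1 on the lists in the same order, beside 2.17% of all genes. They were CDC25B, the phosphatase that activates CDK1 (-0.31 ± 0.062, edgeR adjusted p = 0.0239), the spindle protein HMMR (0.40 ± 0.097, edgeR adjusted p = 0.0492), the kinase CDK4 (-0.34 ± 0.073, edgeR adjusted p = 0.0312), the CDK inhibitor CDKN2C (-0.43 ± 0.10, edgeR adjusted p = 0.0456), the pocket protein RBL2 (0.34 ± 0.081, edgeR adjusted p = 0.047) and BTG2 (0.71 ± 0.085, edgeR adjusted p = 0.000877). In TEPA+hypoxia against control none was called with all libraries. Without hypoxia 2 and 3, 1 other replication gene rose and 6 fell, beside 5.02% of all genes. The kinase CDC7, which fires licensed origins, was the one higher (0.46 ± 0.098, edgeR adjusted p = 0.0191). SLBP, which binds histone messages (-0.29 ± 0.064), and the histone chaperone ASF1B (-0.34 ± 0.080) were among those lower. Of the regulators RBL2 rose (0.44 ± 0.081, edgeR adjusted p = 0.0111) and CDK4 fell (-0.36 ± 0.073, edgeR adjusted p = 0.015). Of the other mitosis genes 3 fell, CDC25B among them (-0.23 ± 0.062, edgeR adjusted p = 0.0478), and of the p53 and arrest genes 3 rose, BTG2 among them (0.50 ± 0.084, edgeR adjusted p = 0.00581), and 1 fell. For TEPA+hypoxia against hypoxia with all libraries, where 61.5% of all genes were called (30.9% higher and 30.6% lower), 24 other replication genes rose and 19 fell, and 32 other mitosis genes rose and 9 fell. Without hypoxia 2 and 3, where 15.2% of all genes were called, these were 8 and 7, and 12 and 4.

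Counting limits single members in a pair of ways. The strand setting of the authors' counting is not given in the sources used here, and 9 members overlap exons of a gene on the opposite strand, MCM7 with AP4M1 and PLK1 with ERN2 among them. Reads of the pair may have been counted together. In addition 8 members, PCNA, RRM2 and TYMS among them, have named pseudogenes whose reads could have been split from them.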

How the data were processed

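RNA from 12 libraries, 3 in each of 4 groups, had been aligned by the authors with HISAT2 2.1.0 to GRCh38, per the submitters' processing notes, which also name DESeq. For the counting tool, its annotation and its strand setting, no source used here names them. The authors deposited raw read counts per gene symbol, and these counts were used as deposited, with totals of 13406858 to 24778944 per library. At that depth 3 counts correspond to 0.118 to 0.267 CPM, and this floor covers counting error only.

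Counts were tested with edgeR 4.0.16 in R 4.3.3 (quasi-likelihood F test, TMM scaling, genes kept by filterByExpr, all 12 libraries in 1 fit), with Benjamini-Hochberg adjustment over 14447 genes and a threshold of 0.05. The standard error is the size of the log2 change divided by the square root of F. Leaving out hypoxia 2 and 3 took the common dispersion of 0.0339 to 0.0085. Alternatives were other scalings and filters, DESeq2 1.42.0, limma-voom (limma 3.58.1), a replicate block, GC and length corrections as splines with 4 degrees of freedom on the 13008 genes with both values (90%), and leaving out libraries. Scaling by library totals alone was added after seeing the data. The fit was tested on simulated data with 200 changed genes, for TEPA+hypoxia against TEPA only. The simulated spread was the same for all genes. No shift of single libraries and no trend with GC content or length was simulated, so comparisons with hypoxia were not covered. Deviations of same-numbered libraries correlated at -0.36 to 0.319, and those of libraries with different numbers at -0.457 to 0.488. With 3 libraries in a group, a pairing by replicate number was thus neither seen nor excluded.

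The members and the gene lists were chosen with earlier results of these data known. Values in every library are given for 12 genes that anchor their roles and for up to 3 members per class and contrast with the smallest p. Of the other lists up to 3 genes per list and contrast were open to naming.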

Additional observations from a re-analysis of the deposited data

Results flagged for a closer look

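The response to low oxygen differed between cells with and without TEPA, by the interaction term of edgeR's fit of all 12 libraries, in 20 members, where the same term was called for 38.8% of all genes. Each value is the log2 response with TEPA minus that without. Among the replication members the response was higher with TEPA in MCM4 (0.553), MCM10 (0.743), RRM1 (0.491) and CCNE2 (0.93). It was lower in MCM5 (-0.618), MCM7 (-1.71), GINS2 (-1.02), CDT1 (-1.23) and E2F1 (-0.793). Among the mitosis members it was higher in MKI67 (0.865), TOP2A (1.21), BUB1 (0.756), BUB1B (0.979), KIF11 (2.68) and CENPF (2.91). The values of KIF11 and CENPF are fitted ones that rest on as few as 1 and 2 counts. It was lower in CCNB2 (-0.404), CDC20 (-0.763), PLK1 (-0.408), AURKB (-0.978) and BIRC5 (-0.805). None of the 20 was called without hypoxia 2 and 3. Groups of 3 libraries were not tested for a single outlying library.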

How the results depend on the processing

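The count of members called in hypoxia against control was 26. It was 0 without hypoxia 2 and 3, 2 with the GC and length correction as well, 0 with only the 2 groups compared, and 15 to 31 when each library was left out in turn. In TEPA+hypoxia against hypoxia, 26 became 6, 5 and 13 under the same 3 settings and 20 to 34 with a library left out. For TEPA+hypoxia against TEPA, 0 became 1 under each of these 3 settings and with DESeq2, and 0 to 1 with a library left out. For TEPA+hypoxia against control, 0 became 2 without hypoxia 2 and 3, 7 with the correction as well, 1 with DESeq2, and 0 to 1 with a library left out. For the interaction, 20 became 13 with library totals only, 5 with the GC and length correction, 0 with that correction and the replicate block, 0 without hypoxia 2 and 3, 1 with the correction as well, and 0 to 32 with a library left out. TEPA against control stayed at 0 in all fits. The replicate block alone kept 25, 25 and 14 of the calls in hypoxia against control, TEPA+hypoxia against hypoxia and the interaction. Whether the numbers pair the samples was not settled, so a call lost under the block may be less sure. The calls over all genes moved with the settings too, so these counts are not read as particular to the members. In TEPA+hypoxia against hypoxia 61.5% of all genes were called, and 37.3% with only the 2 groups compared. At an unadjusted p under 0.05 were 9569 of 14447 genes, 8150 of 14685 without hypoxia 2 and 11151 of 14789 without hypoxia 1. Under the block this held for 8743, 9236 and 7257 genes in hypoxia against control, TEPA+hypoxia against hypoxia and the interaction.

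Called log2 changes that turned sign did so under the GC and length correction, with 1 exception under library totals only, TYMS in TEPA+hypoxia against hypoxia (0.074). Values are for that correction, then with the replicate block, then without hypoxia 2 and 3 where that also turned. In hypoxia against control they were MCM6 (0.21 and 0.20), GINS1 (0.12 and 0.12), CCNE1 (-0.057, -0.058 and -0.0036), E2F1 (-0.050, -0.050 and -0.18), CDC20 (-0.16, -0.16 and -0.078) and AURKB (-0.15, -0.15 and -0.18). MCM5 (-0.029) and BIRC5 (-0.0038) turned only without hypoxia 2 and 3. In TEPA+hypoxia against hypoxia they were PCNA (0.078 and 0.080), TYMS (0.24, 0.24 and 0.018), CCNE1 (0.15, 0.15 and 0.10), CDC20 (0.12, 0.12 and 0.034), PLK1 (0.32, 0.32 and 0.12) and AURKB (0.010, 0.010 and 0.034). E2F1 (0.019) and TPX2 (-0.014) turned only without hypoxia 2 and 3. In the interaction they were E2F1 (0.0080, 0.00817 and 0.15), CDC20 (0.13, 0.13 and 0.059), PLK1 (0.24, 0.24 and 0.050) and AURKB (0.039, 0.038 and 0.077). Most of these turned values were not called. With the correction, CDC20 was called in the opposite direction in hypoxia against control (edgeR adjusted p = 0.0389). In TEPA+hypoxia against hypoxia so were TYMS and PLK1 (edgeR adjusted p = 0.0484 and 0.0299). The cause was not tested. Depth limits KIF11 and CENPF most.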

Other observations

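Within the TEPA+hypoxia group, replicate 3 had the highest MKI67, TOP2A, KIF11 and CENPF of the 12 libraries, which are among the longest transcripts of the set. It was also the highest of the 12 for BUB1, CCNA2, KIF20A, RRM2 and MCM10, with transcripts of 2797 to 4587 bases. Across the 36 members, which share that library, the deviation from the control mean correlated with transcript length at a Spearman rho of 0.697 in TEPA+hypoxia 3 and 0.192 and 0.285 in TEPA+hypoxia 1 and 2. The rho was 0.71 in control 2 and -0.671 in control 3, which are themselves part of the control mean.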
